A study of Mus musculus with 12 samples.

Results

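The genes described here code for subunits of the 5 complexes of oxidative phosphorylation in the inner membrane of the mitochondrion. They were taken by name: a probe set with 1 gene symbol starting with Ndufa, Ndufb, Ndufc, Ndufs, Ndufv, Sdha to Sdhd, Uqcr, Cox4 to Cox8 or Atp5, and for a gene with several probe sets the one with the highest mean signal. This gave 93 genes of the 22180 genes measured: 34 of complex I, 4 of complex II, 7 of complex III, 17 of complex IV, 17 of complex V, 12 assembly factors that share the name prefixes (8 Ndufaf and 4 Sdhaf genes) and 2 pseudogenes. Of the 79 structural subunits, 8 are paralogs known from particular tissues (Cox4i2, Cox6a2, Cox6b2, Cox7a1, Cox7b2, Cox8b, Cox8c and Ndufa4l2) and 71 are the widely expressed forms. All 93 were found in RefSeq by gene identifier under the same symbol. A further 9 genes fit the name rule but lie only on probe sets shared with other genes, and were kept apart.

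RNA was measured on 12 mouse microarrays in 6 groups of 2. Embryonic stem cells (ESC) came from embryonic day (E) 3.5 and were kept with LIF, 3 µM CHIR99021, an inhibitor of the kinase GSK3, and 1 µM PD0325901, an inhibitor of the kinase MEK. Epiblast stem cells (EpiSC) came from E5.75 and were kept with 12 ng/ml FGF2, 20 ng/ml Activin-A and 20% KSR. The rsEpiSC lines, which other label fields call IS-EPIs, had either E5.75 or E6.5 as their stage of origin, and their medium held 2.5 µM IWR1, an inhibitor of Wnt signalling, and 20 ng/ml of a factor that the labels leave unnamed. All 4 cultured groups grew in N2B27 medium on layers of mouse embryonic fibroblasts (MEFs), so a cultured sample can hold fibroblast RNA. The other groups were in vivo epiblast tissue at E5.75 and at E6.5, the pluripotent cell layer of the early postimplantation embryo. For every sample the labels give a cross with the reporter OCT4-deltaPE-GFP. They do not say whether lines of a group were separate, whether embryos were pooled or how the tissue was dissected, so the p-values speak of the spread between these arrays alone, and that spread may be technical.

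Complex I takes electrons from NADH and complex II from succinate, and both pass them through ubiquinone to complex III. Cytochrome c carries them on to complex IV, which reduces oxygen, and complex V, the ATP synthase, uses the proton gradient built by complexes I, III and IV to make ATP. Most subunits are coded in the nucleus and imported, and a few central ones are coded by mitochondrial DNA and were not among the named genes of this table. Pluripotent cells are known to rely strongly on glycolysis, and primed cells more so than naive ones. The transcription factors NRF1, GABPA, YY1 and the ERR nuclear receptors are textbook regulators of nuclear genes of the respiratory chain.

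The 5 promoters below show what these genes share in sequence and what they do not. RefSeq (GRCm38.p6) held promoter windows of 300 bases around a gene start for 76 of the 93 genes. 4 motifs were searched on both strands: GCGCATGCG for NRF1, CCGGAAG for GABPA, TCAAGGTCA for ERR and AAGATGGC for YY1. Capitals mark the matches, and the NRF1 letters read nearly the same on both strands, so that 1 site can match in both directions. Ndufa11, which of the 93 genes differed most between cultured lines and tissue, and Uqcrc1 of complex III carry the NRF1 letters. Sdhd carries the letters of GABPA and ERR, Atp5l carries those of NRF1 and GABPA although it was lower in the cultured lines, and Cox6b2, one of the genes with the largest differences, carries none of the 4.
Ndufa11, chr17:56717512-56717811, + strand: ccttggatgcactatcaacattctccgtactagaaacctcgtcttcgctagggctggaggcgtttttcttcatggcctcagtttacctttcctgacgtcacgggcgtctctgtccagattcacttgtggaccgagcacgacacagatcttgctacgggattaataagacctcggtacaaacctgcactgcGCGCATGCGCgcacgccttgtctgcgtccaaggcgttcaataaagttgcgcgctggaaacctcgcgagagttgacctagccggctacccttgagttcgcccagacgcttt
Uqcrc1, chr9:108936398-108936697, + strand: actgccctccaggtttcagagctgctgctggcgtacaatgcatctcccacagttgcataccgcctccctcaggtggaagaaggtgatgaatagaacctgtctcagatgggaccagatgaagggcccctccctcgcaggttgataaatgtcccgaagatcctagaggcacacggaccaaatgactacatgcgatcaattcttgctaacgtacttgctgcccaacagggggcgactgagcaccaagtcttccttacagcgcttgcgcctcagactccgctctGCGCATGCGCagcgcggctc
Sdhd, chr9:50603800-50604099, - strand: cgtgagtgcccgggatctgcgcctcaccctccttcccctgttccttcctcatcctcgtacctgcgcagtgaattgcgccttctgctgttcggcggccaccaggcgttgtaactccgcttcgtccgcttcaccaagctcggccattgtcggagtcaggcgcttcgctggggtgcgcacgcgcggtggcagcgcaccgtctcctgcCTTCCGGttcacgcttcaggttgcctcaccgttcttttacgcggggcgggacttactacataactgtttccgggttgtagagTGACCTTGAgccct
Atp5l, chr9:44920693-44920992, - strand: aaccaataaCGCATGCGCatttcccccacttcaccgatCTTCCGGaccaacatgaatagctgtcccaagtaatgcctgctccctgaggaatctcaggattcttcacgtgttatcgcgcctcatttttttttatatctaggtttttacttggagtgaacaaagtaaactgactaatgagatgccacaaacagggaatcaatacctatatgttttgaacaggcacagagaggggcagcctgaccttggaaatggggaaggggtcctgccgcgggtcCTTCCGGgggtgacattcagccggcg
Cox6b2, chr7:4753045-4753344, - strand: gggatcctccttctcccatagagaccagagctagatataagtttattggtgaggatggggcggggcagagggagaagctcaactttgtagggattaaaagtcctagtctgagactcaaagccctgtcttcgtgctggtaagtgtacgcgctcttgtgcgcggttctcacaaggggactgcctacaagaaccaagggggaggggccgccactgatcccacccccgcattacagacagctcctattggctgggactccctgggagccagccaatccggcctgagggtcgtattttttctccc

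The NRF1 letters stood in the windows of 10 of the 76 genes (13.2%). The share was 1.95% of 27025 genes in the promoter table and 2.66% of 16918 genes also on the array. GABPA letters were found for 22 (28.9%, against 9.93% and 12.7% in the same order). YY1 letters were found for 10 (13.2%, against 3.19% and 3.65%). ERR letters were found for 2 (2.63%, against 0.47% and 0.37%), namely Sdhd and Atp5g3. In all, 37 of the 76 genes (48.7%) held at least 1 of the motifs, against 14.5% of all genes in the promoter table. Among the 46 genes with a window that rose in the cultured lines, 8 held the NRF1 letters (17.4%) and 13 the GABPA letters (28.3%). Among the other 30, the counts were 2 (6.67%) and 9 (30.0%). These are matches of letters in a window and not measured binding.

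The deposited values are log2 signals of the arrays, so a difference of 1 is 2-fold and a difference of 2 is 4-fold. The spread of the signals over genes was narrower in tissue than in culture: the interquartile range of all genes was 2.23 to 2.68 on the 4 tissue arrays and 3.07 to 3.31 on the 8 cultured arrays. Correlations between arrays over probe sets ran from 0.854 to 0.978, with 0.910 as the lowest within a group. The subunit genes are bright on every array. Their median stood at percentile 96.6 to 97.4 of all genes on the cultured arrays. In tissue it stood at 95.3 and 97.0 at E5.75 and at 94.2 and 95.4 at E6.5. By this measure the second E5.75 array lay within the cultured range. Between replicates the median absolute difference of the 93 genes was 0.37 between the E5.75 tissue arrays and 0.38 between those of E6.5, against 0.0979 to 0.265 in the cultured groups. For 16 of the 93 genes the epiblast E5.75 arrays differed by more than 1. The number of arrays limits the precision, most of all in tissue.

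In every complex the median signal of the subunits was higher on the cultured arrays than in tissue, with 1 tissue array overlapping in complex III. For complex I the medians on the cultured arrays ran from 9.20 to 9.55, and those on the tissue arrays were 8.87 and 9.04 at E5.75 and 8.59 and 8.88 at E6.5. For complex II the cultured range was 8.26 to 9.11, with the ESC arrays lowest, and the tissue arrays had 7.37, 7.79, 7.98 and 7.61 in the same order. For complex III it was 9.38 to 9.85, and the tissue arrays had 8.19, 9.43, 8.63 and 8.33, so that the second E5.75 array lay within the cultured range. Complex IV had the widest gap between medians, with 10.10 to 10.92 in culture and 8.36, 8.56, 7.29 and 8.33 in tissue. Its genes are bright common forms and mostly dim paralogs, so the median can fall on different genes. On the rsEpiSC arrays and EpiSC replicate 2 it matched the signal of Cox6b2, and in tissue that of Cox4i1 or Cox7a1. The gap is thus not the shift of a typical gene: the median difference per gene, given below, was larger in complex II. Complex V had 10.83 to 11.16 in culture and 9.31, 10.28, 9.64 and 10.19 in tissue. These levels are those of the deposited scale, on which all arrays had nearly the same median of all genes (4.58 to 4.70). The spread over genes was narrower in tissue, so equal medians do not make the levels of bright genes comparable between tissue and culture.

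**Figure D1:**
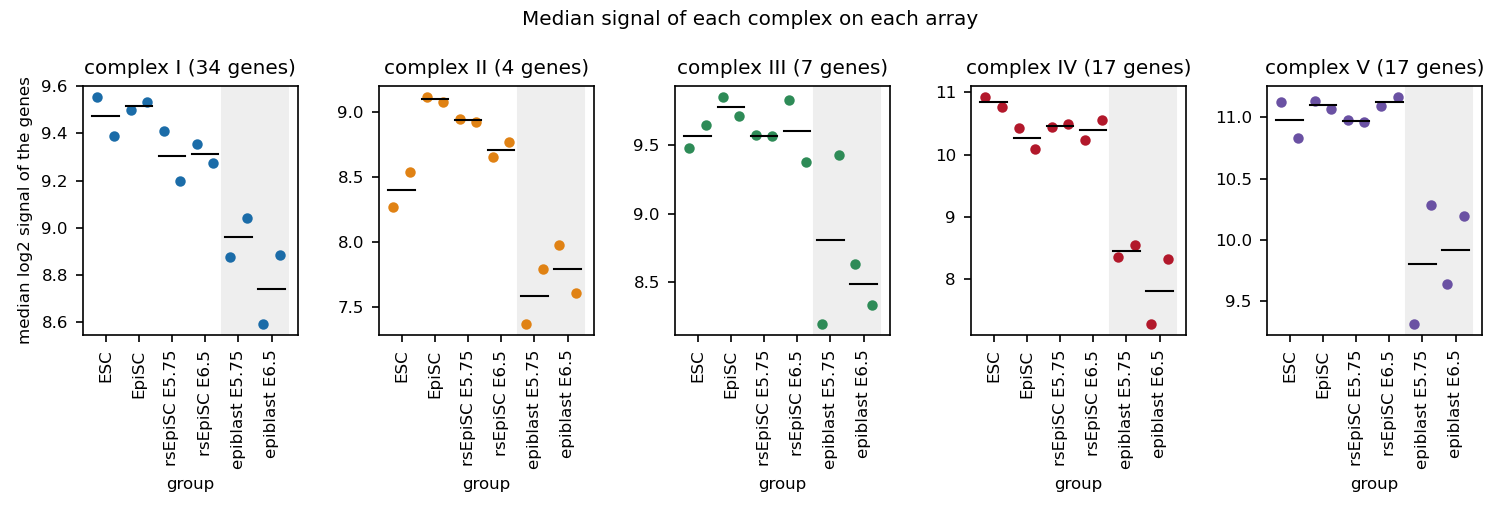
Median log2 signal of the subunit genes of each complex (y axis, scaled per panel) on each of the 12 arrays, as points by group (x axis), with a line at the mean of the 2 arrays and tissue shaded. The 4 tissue points lie below all cultured points in complexes I, II, IV and V, while in complex III 1 tissue point (9.43) lies among the cultured ones.

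**Figure D2:**
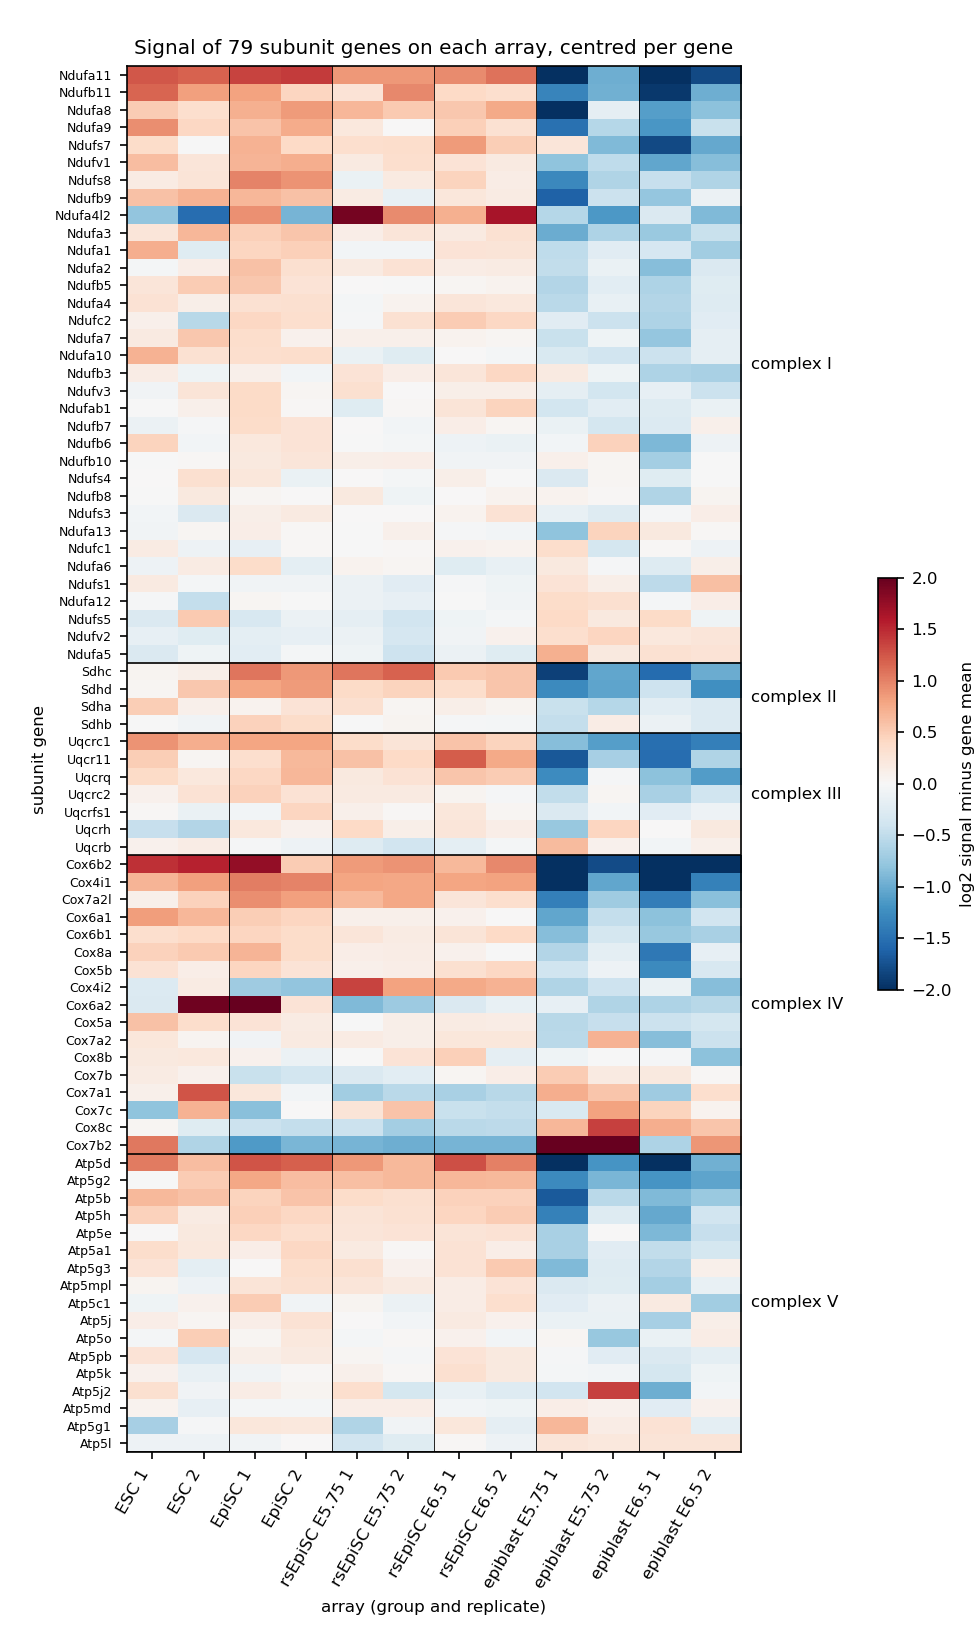
Log2 signal of the 79 subunit genes (rows, by complex and by their difference between culture and tissue) on the 12 arrays (columns, by group and replicate), minus the mean of the gene over all arrays. The upper genes of each complex are low on the tissue arrays, most on the first array of each stage, while a few at the bottom, such as Cox7b2 and Cox8c, are high there.

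The cultured lines were compared with epiblast tissue to ask how the respiratory chain of the lines relates to that of their counterpart in the embryo. Subunits of all 5 complexes were higher in the lines. Differences are given relative to the median of all genes, ± the standard error of limma's fit, and a gene is said to rise or fall where its p, adjusted over all genes by the Benjamini-Hochberg method, was under 0.05. In the mean of the 4 cultured groups against the mean of the 2 tissue groups, 56 of the 93 genes rose and 7 fell, where 22.2% of all genes rose and 14.9% fell, together 37.1%. The median difference was 0.63, 27 genes rose by at least 2-fold and 6 by at least 4-fold. Every cultured array lay above every tissue array for 36 of the 93 genes and below for 6, against 7.38% and 10.0% of all genes. In these bulk samples, fewer cells of a type and less RNA per cell cannot be told apart.

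Each group of lines was also set against the epiblast of its stage. In EpiSC against epiblast E5.75, 44 genes rose and 4 fell (background 15.8% and 5.97%, together 21.8%), with a median of 0.75. In rsEpiSC E5.75 against epiblast E5.75, 34 rose and 4 fell (14.4% and 6.00%, together 20.4%), with a median of 0.52, and without replicate 1 or replicate 2 of rsEpiSC E5.75 the number that passed was 20 or 22 in place of 38. In rsEpiSC E6.5 against epiblast E6.5, 35 rose and 3 fell (8.12% and 4.03%, together 12.2%), with a median of 0.59. There the number fell from 38 to 14 or 12 without replicate 1 or 2 of rsEpiSC E6.5, and to 18 without replicate 1 of epiblast E6.5, whose own omission took the median to 0.39. Without replicate 1 of epiblast E5.75, the median of rsEpiSC E5.75 was 0.34. The comparisons of EpiSC and of rsEpiSC E5.75 share the E5.75 tissue arrays, and all 3 share arrays with the pooled one, so their calls are not independent. In these 3 and the pooled one 27 genes rose and 1, Cox8c, fell, and 29 passed in none. The Cox8c call in rsEpiSC E6.5 was lost after quantile normalization, with every probe set tested, and without either rsEpiSC E6.5 replicate or replicate 1 of epiblast E6.5 (-1.10 to -0.92).

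**Figure D3:**
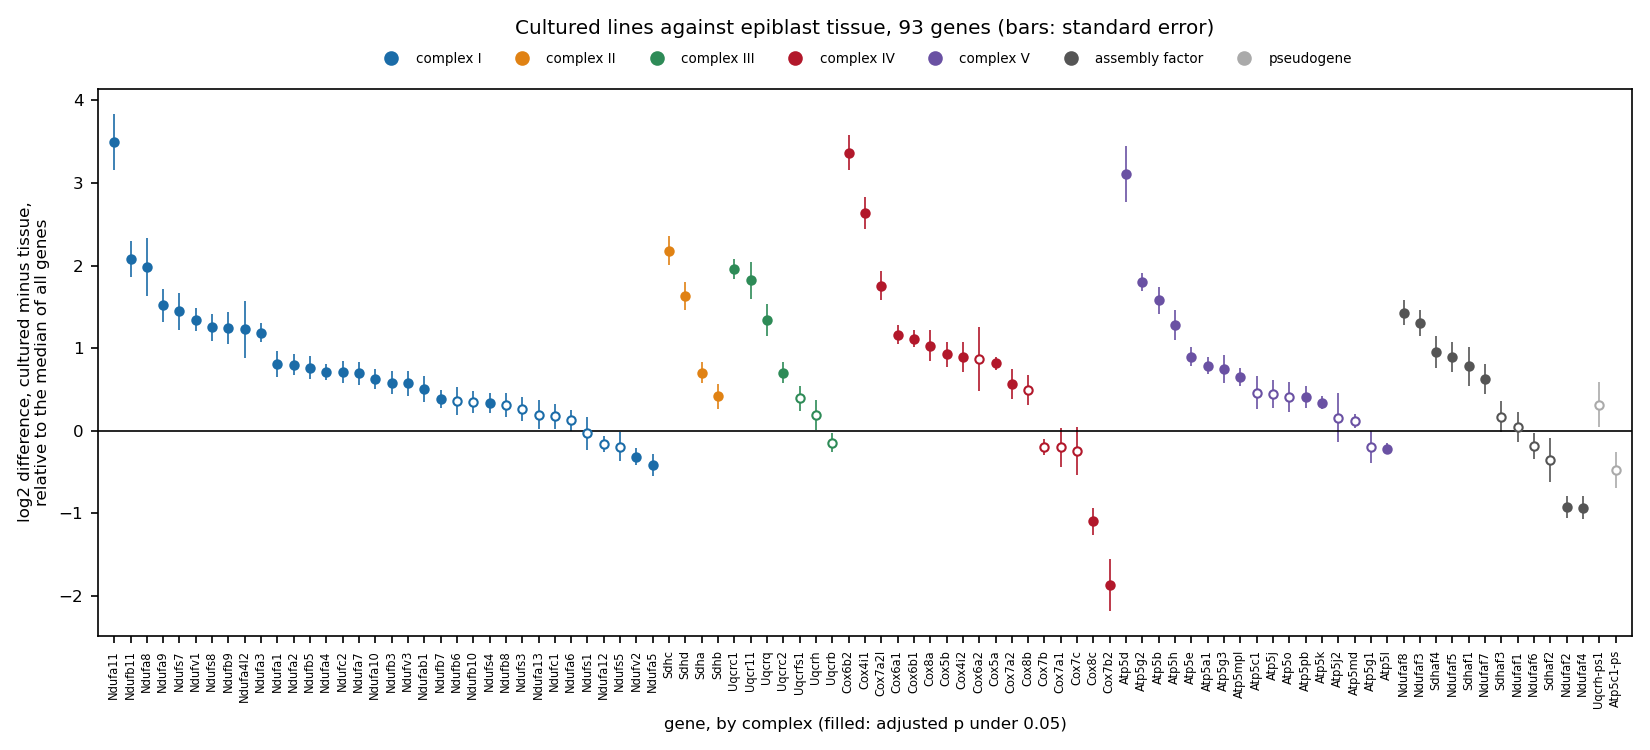
Log2 difference of the mean of the cultured groups minus the mean of the tissue groups, relative to the median of all genes (y axis), for each of the 93 genes (x axis, by complex), with the standard error as bars and filled points where adjusted p was under 0.05. Most points lie above 0, led by Ndufa11 (3.498), Cox6b2 (3.37) and Atp5d (3.11), and the lowest is Cox7b2 (-1.86).

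How many genes rose and fell depended on how the arrays were scaled to each other. The median of the differences of all genes, culture minus tissue, was -0.14 on the values as deposited. On that scale 49 genes rose and 10 fell, against 18.1% and 24.2% of all genes. After quantile normalization 39 rose and 11 fell (15.0% and 14.3%), and the median was 0.34. With only genes brighter than the median gene, and relative to them, 41 rose and 11 fell of the 84 genes left (24.6% and 24.1%). Of the 56 genes that rose, 37 did so under all of these scalings, 12 of complex I, 3 of complex II, 4 of complex III, 9 of complex IV, 6 of complex V and 3 assembly factors, and none of the 56 fell under any of them. Of the 7 that fell, Atp5l, Ndufa5, Ndufv2, Ndufaf2 and Ndufaf4 did so under all of these scalings. Cox7b2 and Cox8c are too dim to enter the last one and fell under the others. The calls of Atp5l, Ndufa5 and Ndufv2 were lost in other fits, given below with each gene. In rsEpiSC E5.75 the split moved most, from 34 and 4 to 29 and 11 as deposited (background 11.5% and 10.0%), to 22 and 12 after quantile normalization (8.34% and 6.72%) and to 20 and 10 among bright genes (15.2% and 13.6%). In EpiSC it moved from 44 and 4 to 40 and 6 as deposited (12.6% and 11.4%), to 28 and 10 after quantile normalization (9.70% and 8.04%) and to 26 and 9 among bright genes (18.2% and 16.0%). In rsEpiSC E6.5 the 35 and 3 became 33 and 3 as deposited (6.72% and 5.78%), 22 and 3 after quantile normalization (4.82% and 4.24%) and 26 and 3 among bright genes (10.4% and 9.73%).

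**Figure D4:**
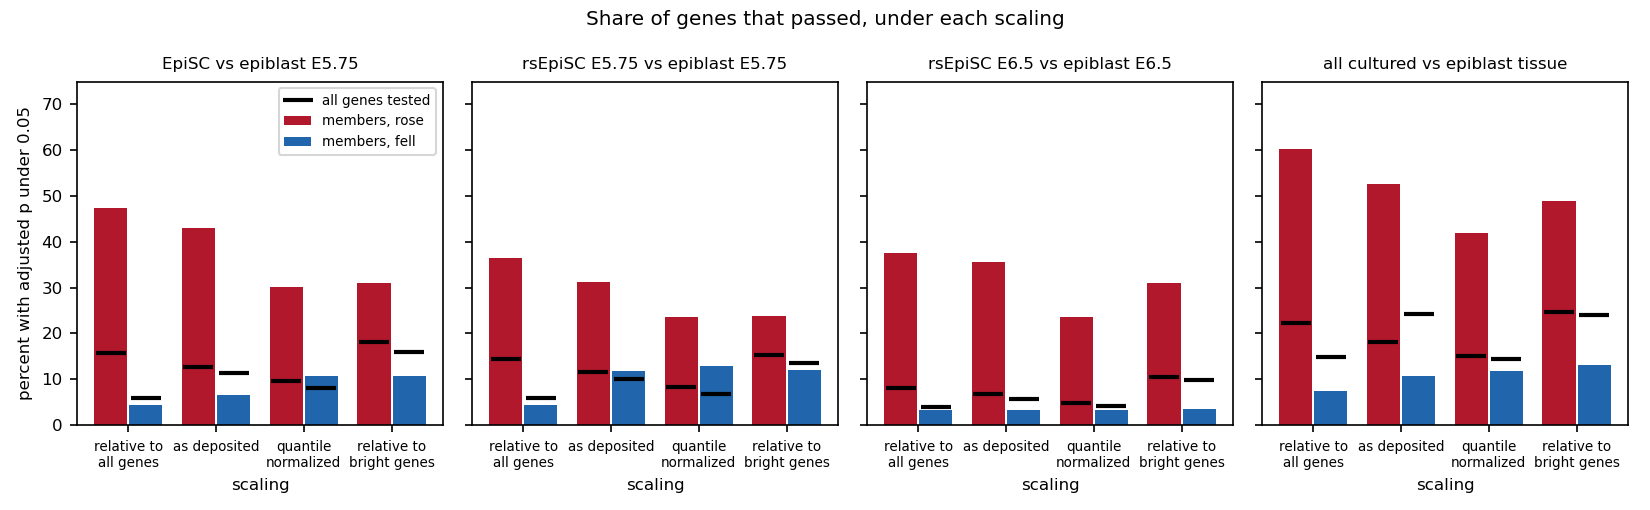
Percent of the 93 genes (84 with bright genes only) that rose (red bars) or fell (blue bars) with adjusted p under 0.05 (y axis), in the 4 comparisons of culture with tissue (panels) and under 4 scalings (x axis), with black ticks for the share of all genes tested. The red bars exceed their ticks in every panel, while the blue ones lie above theirs only in rsEpiSC E5.75 as deposited and in EpiSC and rsEpiSC E5.75 after quantile normalization.

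The tissue arrays did not all hold the lows alike. Of the 56 genes that rose, 24 had their lowest tissue signal on replicate 1 of epiblast E5.75 and 24 on replicate 1 of epiblast E6.5, but only 3 and 5 on replicate 2 of these groups. Over all genes the 4 arrays held the lowest signal in 28.0%, 23.0%, 24.2% and 24.7% of cases in the same order. With any 1 of the 12 arrays left out, the median difference of the 93 genes in the pooled comparison ran from 0.57 to 0.69.

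Complex I, the NADH dehydrogenase, had 22 genes of 34 that rose and 2 that fell, with a median difference of 0.61. Ndufa11, a membrane arm subunit, had signals of 10.93 to 11.46 (median 11.20) on the cultured arrays. Its tissue signals were 6.60 and 9.09 at E5.75 and 7.38 and 8.26 at E6.5. The groups did not overlap, although the tissue arrays differed from each other by more than 2-fold. The difference was 3.498 ± 0.34 (adjusted p = 1.84e-05 in limma), and in a fit of every probe set, relative to their median, a second probe set gave 2.44 beside 3.56 for the first. Ndufb11, an accessory subunit of the membrane arm, had 5.86 to 6.74 in culture and 4.25, 4.62, 3.66 and 4.61 in tissue, again without overlap (2.08 ± 0.22, adjusted p = 2.62e-05 in limma). Ndufa8 rose by 1.98 ± 0.35, with 9.53 to 10.03 in culture and 6.38, 9.00, 8.07 and 8.37 in tissue, of which the first E5.75 array was by far the lowest.

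The core subunits of complex I, among them those that carry the flavin and the iron-sulphur clusters, are conserved from bacteria. They did not move as a block. Of 6 measured, Ndufs7, Ndufs8 and Ndufv1 rose, Ndufv2 fell, and Ndufs1 and Ndufs3 did not pass. Ndufv1, which binds NADH and the flavin, had 8.17 to 8.72 in culture and 7.18, 7.49, 6.95 and 7.14 in tissue (1.35 ± 0.14, adjusted p = 3.12e-05 in limma). Ndufs8 had 8.27 to 9.40 in culture, highest in EpiSC, and 7.11, 7.80, 7.94 and 7.80 in tissue (1.25 ± 0.16). Ndufs7 rose by 1.45 ± 0.22, but its first E5.75 tissue array, at 8.80, lay within the cultured range of 8.56 to 9.41, while the other 3 had 7.68, 6.76 and 7.54. Ndufv2, the partner of Ndufv1 in the NADH-binding module, went the other way. It had 9.31 to 9.72 in culture and 9.98, 10.06, 9.86 and 9.88 in tissue (-0.31 ± 0.11, adjusted p = 0.0346 in limma). That call was lost in fits of every probe set, with array weights or without a variance trend. It was also lost at least without replicate 2 of rsEpiSC E6.5 and without replicate 2 of epiblast E6.5. Ndufs1 had a difference of -0.03 ± 0.20 and Ndufs3 of 0.26 ± 0.15.

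Among the accessory subunits Ndufa5 fell by 0.41 ± 0.13 (adjusted p = 0.028 in limma), with 9.09 to 9.47 in culture and 10.22, 9.70, 9.80 and 9.78 in tissue. It did not pass without EpiSC replicate 1, rsEpiSC E5.75 replicate 2, rsEpiSC E6.5 replicate 2, epiblast E5.75 replicate 1 or either replicate of epiblast E6.5 (-0.42 to -0.30), nor in fits of every probe set, with array weights or without a variance trend (-0.41 to -0.35). Ndufa4, named for complex I but now counted as a subunit of complex IV, had the highest mean signal of this group of genes, with 11.35 to 11.71 in culture and 10.84, 11.25, 10.81 and 11.14 in tissue (0.71 ± 0.10). Ndufs5, the dimmest, had 3.02 to 3.93 in culture and 3.81, 3.59, 3.78 and 3.32 in tissue, and did not pass. Ndufb10, with 9.29 to 9.60 in culture and 9.47, 9.40, 8.69 and 9.35 in tissue, came close to passing (0.35 ± 0.13, adjusted p = 0.0576 in limma), and was 0.17 without the low first E6.5 array. Brightness also depends on the probes, so these levels do not rank transcripts.

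In complex II, the succinate dehydrogenase that also serves the citric acid cycle, all 4 genes rose, with a median of 1.17. The membrane anchors moved more than the catalytic subunits. Sdhc, an anchor, had 8.26 and 8.32 in ESC, 9.27 and 9.07 in EpiSC, 9.28 and 9.38 in rsEpiSC E5.75 and 8.73 and 8.75 in rsEpiSC E6.5. Its tissue signals were 6.34 and 7.17 at E5.75 and 6.66 and 7.21 at E6.5, below every cultured array (2.18 ± 0.18, adjusted p = 5.48e-06 in limma). Sdhd, the other anchor, whose promoter with GABPA and ERR letters is printed above, had 8.27 to 9.08 in culture and 6.95, 7.16, 7.80 and 7.00 in tissue (1.63 ± 0.17). Sdha, the flavoprotein, had 9.17 to 9.63 against 8.69, 8.57, 8.91 and 8.86 (0.70 ± 0.13). Sdhb, the iron-sulphur subunit, had 8.20 to 8.73 against 7.79, 8.42, 8.15 and 8.00, an overlap, and rose by 0.42 ± 0.15 (adjusted p = 0.0427 in limma). Under the other scalings 3 of the 4 still rose, without Sdhb. The difference between anchors and catalytic subunits was not tested.

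Of the 7 genes of complex III, the cytochrome bc1 complex, 4 rose and none fell, with a median of 0.71. Uqcrc1, a core protein, had 9.18 to 9.82 in culture and 8.07, 7.82, 7.42 and 7.55 in tissue. The groups lay more than 1 unit apart, and its standard error was among the small ones (1.96 ± 0.12, adjusted p = 8.63e-07 in limma). Uqcr11 rose by 1.82 ± 0.23, Uqcrq by 1.34 ± 0.19 and Uqcrc2, the other core protein, by 0.71 ± 0.13. Uqcrfs1, the Rieske iron-sulphur protein and the dimmest of the complex, had 7.56 to 8.13 in culture and 7.41, 7.64, 7.48 and 7.60 in tissue and did not pass (adjusted p = 0.059 in limma). Uqcrh, the hinge protein, and Uqcrb, the brightest, overlapped between culture and tissue, with differences of 0.19 ± 0.18 and -0.15 ± 0.11. Uqcrb fell after quantile normalization and among bright genes, while a dimmer probe set that it shares with Gm10767, given below, rose.

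Complex IV, cytochrome c oxidase, had 10 genes of 17 that rose and 2 that fell, with a median of 0.87. Cox4i1, the common form of the regulatory subunit 4, had 11.29 to 11.64 in culture and 8.36 and 9.58 at E5.75 and 8.60 and 9.25 at E6.5 in tissue. The cultured arrays lay close together while the tissue arrays spread by more than 1 unit (2.64 ± 0.19, adjusted p = 2.59e-06 in limma). Cox7a2l, which is known for its part in joining complexes into supercomplexes, had 7.90 to 8.73 in culture and 6.43, 7.09, 6.42 and 6.96 in tissue (1.75 ± 0.18). Cox6a1, Cox6b1, Cox5b and Cox5a rose by 1.17 ± 0.11, 1.12 ± 0.11, 0.93 ± 0.15 and 0.82 ± 0.08. A second, dimmer probe set of Cox5b went the other way (-0.44 against 0.99 for the first, both in the fit of every probe set), so the direction for Cox5b depends on the probe set. Cox7b had 10.42 to 11.03 in culture and 11.38, 11.05, 11.05 and 10.88 in tissue. It did not pass in the pooled comparison (-0.20 ± 0.09), fell in EpiSC against epiblast E5.75 (-0.56 ± 0.15, adjusted p = 0.0188 in limma) and fell in the pooled comparison under the other 3 scalings. The EpiSC call was lost without either EpiSC replicate or without replicate 1 of epiblast E5.75, and also with every probe set tested, without a variance trend, with only the arrays compared, and with the mean of its probe sets (-0.12). In the fit of every probe set the second, dimmer probe set of Cox7b had 0.47 against -0.14 for the first in the pooled comparison, neither of which passed.

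The paralogs of complex IV and Ndufa4l2 differed most among themselves: of the 8, 3 rose, 2 fell and 3 did not pass. Cox6b2, known as the testis form of subunit 6b, had 11.06 and 11.13 in ESC, 11.35 and 10.10 in EpiSC, 10.44 and 10.49 in rsEpiSC E5.75 and 10.24 and 10.56 in rsEpiSC E6.5. In tissue it had 7.33, 7.81, 7.05 and 7.59, so every cultured array lay above every tissue array by more than 2 units (3.37 ± 0.21, adjusted p = 9.57e-07 in limma). Its common partner Cox6b1 had 10.81 to 11.07 in culture and 9.78, 10.29, 9.88 and 9.99 in tissue. The difference between the changes of the partners was not tested.

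Cox7b2, another form known from testis, went the other way. It had 5.66 and 6.20 in epiblast E5.75, then 2.76 and 4.27 in epiblast E6.5, 4.44 and 2.79 in ESC and 2.26 to 2.47 on the EpiSC and rsEpiSC arrays. Tissue of E5.75 stood above all other arrays, while the ESC and the E6.5 arrays overlapped. It fell in the pooled comparison (-1.86 ± 0.31, adjusted p = 0.000732 in limma), in EpiSC (-3.38 ± 0.51) and in rsEpiSC E5.75 (-3.34 ± 0.51) against epiblast E5.75, and did not pass in rsEpiSC E6.5 against epiblast E6.5 (-0.96 ± 0.51, adjusted p = 0.248 in limma). Cox8c, the testis form of subunit 8, was dim throughout, with 2.57 to 3.29 in culture and 3.91, 4.61, 3.98 and 3.81 in tissue, and fell by 1.10 ± 0.16 (adjusted p = 0.000268 in limma).

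Cox4i2 and Ndufa4l2 are both known as genes induced by low oxygen. Cox4i2 had 6.54 and 5.99 in rsEpiSC E5.75 and 5.94 and 5.87 in rsEpiSC E6.5, against 4.91 and 5.35 in ESC, 4.47 and 4.40 in EpiSC and 4.58, 4.76, 5.04 and 4.33 in tissue. The 4 rsEpiSC arrays lay above the other 8. Cox4i2 rose in rsEpiSC E5.75 against EpiSC (1.83 ± 0.30, adjusted p = 0.0049 in limma), against ESC (1.14 ± 0.30) and against epiblast E5.75 (1.75 ± 0.30), and in rsEpiSC E6.5 against epiblast E6.5 (1.32 ± 0.30, adjusted p = 0.0161 in limma). EpiSC and epiblast E5.75 differed by -0.05 ± 0.30. Ndufa4l2 had 8.12 and 7.15 in rsEpiSC E5.75 and 6.91 and 7.84 in rsEpiSC E6.5, against 5.42 and 4.68 in ESC and 5.64, 5.05, 5.91 and 5.32 in tissue. The EpiSC arrays, at 7.11 and 5.28, fell on both sides. It rose in rsEpiSC E5.75 against ESC (2.59 ± 0.57, adjusted p = 0.0115 in limma) and against epiblast E5.75 (2.45 ± 0.57), and did not pass in rsEpiSC E6.5 against epiblast E6.5 (1.86 ± 0.57, adjusted p = 0.0513 in limma) or in rsEpiSC E5.75 against EpiSC (1.44 ± 0.57).

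Cox6a2, the heart and muscle form, had 5.33 and 7.55 in ESC and 7.65 and 5.89 in EpiSC, so replicates differed by 2.23 in ESC, and 4.73 to 5.46 on all other arrays. Cox7a1, also known from heart and muscle, had 8.09 and 9.25 in ESC, 8.23 and 7.94 in EpiSC, 7.30 to 7.46 in rsEpiSC and 8.73, 8.56, 7.29 and 8.33 in tissue. Its difference of rsEpiSC E5.75 from ESC was -1.29 ± 0.39 (adjusted p = 0.0561 in limma). Cox8b was dim, at 3.31 to 3.97 in culture and 2.67 to 3.48 in tissue, and did not pass. The common partners were bright and rose: Cox7a2 by 0.56 ± 0.18 and Cox8a by 1.03 ± 0.19. For Cox7a2 the second E5.75 tissue array, at 11.98, lay above every cultured array (11.22 to 11.51), and it did not pass under the other scalings. Cox8a, with 10.92 to 11.61 in culture and 10.35, 10.75, 9.50 and 10.77 in tissue, rose under all of them.

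**Figure D5:**
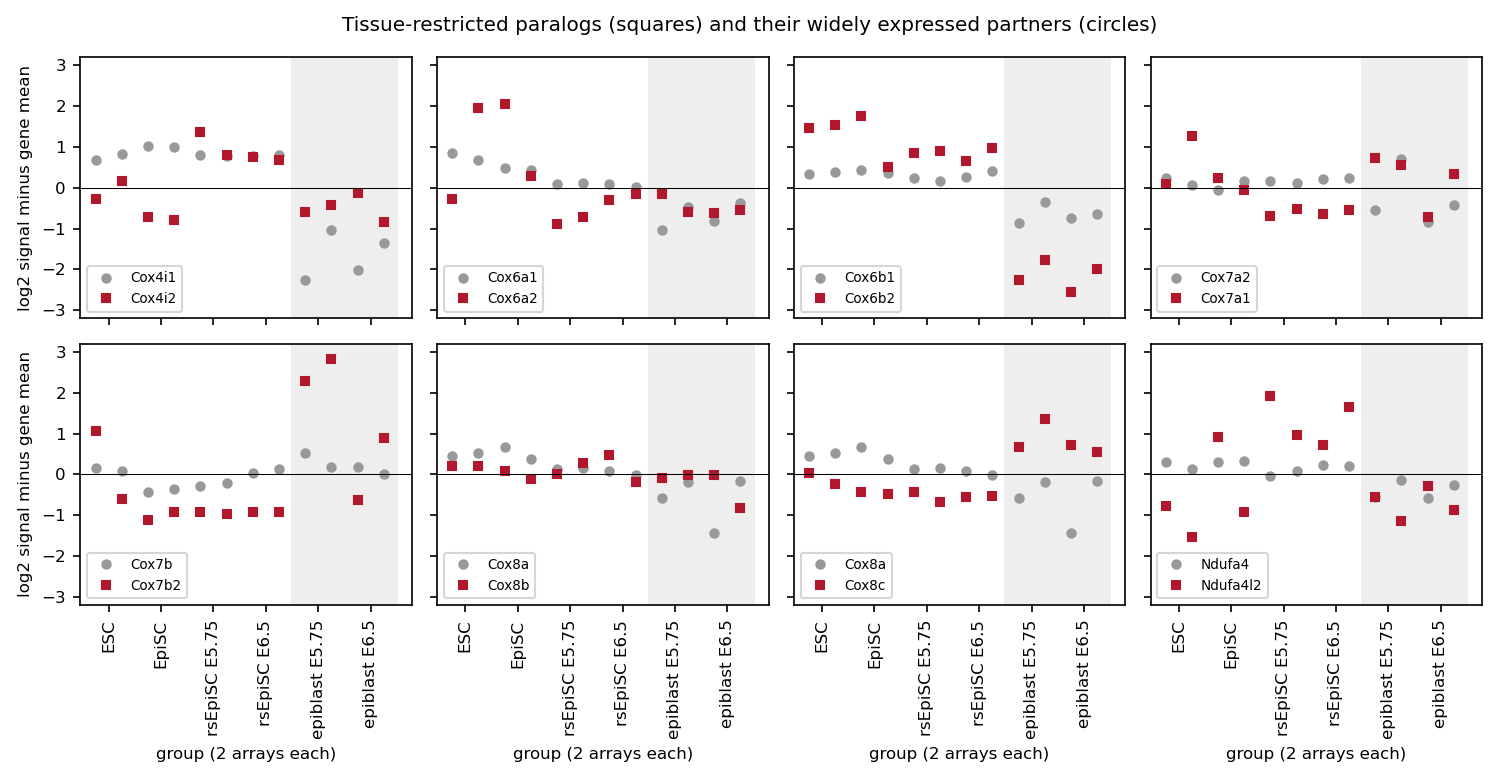
Log2 signal minus the mean of the gene over all arrays (y axis) on the 12 arrays by group (x axis), for 8 paralogs known from particular tissues (squares) and their widely expressed partners (circles), with tissue shaded. Cox6b2 is low in tissue, Cox7b2 and Cox8c are high there, and the 4 rsEpiSC squares of Cox4i2 lie above its others.

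In complex V, the ATP synthase, 10 genes of 17 rose and 1 fell, with a median of 0.46. Atp5d, the delta subunit of the central stalk, had 11.24 to 11.92 in culture and 7.49 and 9.46 at E5.75 and 8.00 and 9.67 at E6.5 in tissue. All tissue arrays lay below, with the first array of each stage the lower one (3.11 ± 0.34, adjusted p = 3.66e-05 in limma), and in the fit of every probe set a second one gave 2.15 beside 3.17 for the first. Atp5g2, which codes for subunit c of the rotor ring, had 11.19 to 11.97 in culture and 9.94, 10.28, 10.03 and 10.14 in tissue (1.80 ± 0.11). Atp5b and Atp5a1, the catalytic beta and the alpha subunit, rose by 1.58 ± 0.16 and 0.79 ± 0.10. Atp5e, the epsilon subunit and the brightest, had 12.35 to 12.75 in culture and 11.69, 12.34, 11.44 and 11.87 in tissue and rose by 0.90 ± 0.11.

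Atp5l, subunit g of the membrane part, was the member of complex V that fell. It had 11.51 to 11.92 in culture and 12.14, 12.10, 12.15 and 12.15 in tissue. The groups did not overlap although the difference was small (-0.22 ± 0.07, adjusted p = 0.0221 in limma). The call was lost in fits of every probe set, with array weights or without a variance trend. With 1 array left out it was lost at least without replicate 2 of rsEpiSC E6.5 and without replicate 2 of epiblast E6.5. Atp5g1, which codes for the same subunit c as Atp5g2 and was the dimmest of the complex, had 3.76 to 4.65 in culture and 5.09, 4.56, 4.71 and 4.22 in tissue and did not pass (-0.19 ± 0.19). The 2 pseudogenes, Uqcrh-ps1 and Atp5c1-ps, stayed at 1.37 to 3.76 on all arrays and passed in none of the 10 comparisons.

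Of the 12 assembly factors taken by their prefix, 6 rose and 2 fell, with a median of 0.40. Ndufaf8 had 6.57 to 7.45 in culture and 6.09, 5.83, 5.58 and 5.62 in tissue (1.43 ± 0.15, adjusted p = 2.76e-05 in limma), and Ndufaf3 rose by 1.30 ± 0.16. Ndufaf2 fell by 0.92 ± 0.13, with 7.74 to 8.53 in culture and 9.13, 8.94, 9.60 and 9.51 in tissue. Ndufaf4 fell by 0.93 ± 0.14, with 7.38 to 8.28 against 8.88, 8.98, 8.92 and 9.28. For both, every tissue array lay above every cultured one. All 4 genes are known to help build complex I, and they moved in both directions.

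Among the cultured groups few of the same genes passed. EpiSC were set against ESC to compare the primed with the naive state, and 0 of the 93 genes passed in limma at an adjusted p under 0.05, where 6.29% of all genes did (3.60% rose and 2.70% fell). At an unadjusted p under 0.05 there were 15 of the 93, a share close to the 16.6% of all genes. By that count they differed about as often as other genes. The median difference was 0.11, with 59 genes higher. In complex IV 6 of 17 genes were higher, where 50.6% of all genes were, and the median was -0.25, while complexes I, II, III and V had medians of 0.08, 0.49, 0.23 and 0.13. These medians were not tested. Closest to passing were Sdhaf1, an assembly factor of complex II, with 8.15 and 7.67 in EpiSC and 6.89 and 6.16 in ESC (1.39 ± 0.39, adjusted p = 0.0551 in limma), and Cox7b, with 10.42 and 10.50 in EpiSC and 11.03 and 10.95 in ESC (-0.53 ± 0.15, adjusted p = 0.0625 in limma). Without replicate 1 or replicate 2 of ESC, 2 genes passed.

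In rsEpiSC E5.75 against ESC, 3 genes rose and 2 fell, where 5.49% of all genes rose and 4.80% fell, together 10.3%. Ndufa4l2, Cox4i2 and Sdhc rose (Sdhc by 1.04 ± 0.29, adjusted p = 0.0398 in limma). Cox6a1, the common form of subunit 6a, fell by 0.65 ± 0.18, with 11.70 and 11.71 in rsEpiSC E5.75 and 12.45 and 12.27 in ESC. Ndufa10 fell by 0.68 ± 0.20, with 9.13 and 9.02 against 9.95 and 9.56. The count of 5 became 0 and 1 without replicate 1 and 2 of rsEpiSC E5.75 and 3 without replicate 1 of ESC. Sdhc and Cox6a1 were each lost without any 1 of these 4 arrays, Cox4i2 and Ndufa10 without ESC replicate 1 or either rsEpiSC replicate, and Ndufa4l2 without ESC replicate 2 or rsEpiSC E5.75 replicate 1. With every probe set tested Cox4i2, Sdhc, Cox6a1 and Ndufa10 were lost, and without a variance trend Cox6a1 and Ndufa10. Cox4i2 was also lost after quantile normalization and with only the arrays compared, and Ndufa10 with only the arrays compared and with the replicate number as a block. In complex IV 4 of 17 genes were higher than in ESC, where 51.8% of all genes were, with a median of -0.35, which was not tested and shares its ESC arrays with the comparison of EpiSC. In rsEpiSC E5.75 against EpiSC, Cox4i2 alone passed (1.08% of the genes, against a background of 3.87%, of which 1.56% rose and 2.31% fell), and not without replicate 1 of rsEpiSC E5.75. There 71 of the 93 genes were lower, with a median of -0.16, where 52.2% of all genes were higher. Comparisons within culture share ESC, EpiSC or rsEpiSC arrays with each other.

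Between E6.5 and E5.75 none of these genes passed in limma, in the lines or in tissue, and hardly any of all genes did. Between rsEpiSC of E6.5 and of E5.75, 0 of 93 passed, where 0.0857% of all genes did (0.0631% rose and 0.0225% fell), and the median was 0.07. At an unadjusted p under 0.05 there were 3 of the 93, where 4.66% of all genes reached it. Between epiblast of E6.5 and of E5.75, 0 passed, where 0.0225% of all genes did (0.0135% rose and 0.00902% fell), and 11 reached an unadjusted p under 0.05, as did 12.7% of all genes. The median of -0.07 ran from -0.20 without replicate 1 of epiblast E5.75 to 0.03 without replicate 1 of epiblast E6.5. Cox7b2 had the largest difference there, -2.41 ± 0.51 (adjusted p = 0.147 in limma). Ndufb3, an accessory subunit of complex I, had 8.39 and 8.11 at E5.75 and 7.58 and 7.55 at E6.5, without overlap (-0.68 ± 0.22, adjusted p = 0.252 in limma). Without replicate 1 or replicate 2 of epiblast E5.75, 1 or 3 genes passed. The test of whether the stage difference of rsEpiSC differed from that of tissue also called 0, where it called 0.00902% of all genes. At an unadjusted p under 0.05 there were 8, against 8.65% of all genes.

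Other genes of the pathway were taken from lists. Their counts can be read against the 22.2% of all genes that rose and the 14.9% that fell in the pooled comparison with tissue. Of 16 measured electron carriers and related enzymes, 6 rose and 1 fell. Etfb, of the electron transfer flavoprotein, rose by 2.08 ± 0.15 and Cyc1, the cytochrome c1 of complex III, by 1.33 ± 0.13. Cyct, the testis cytochrome c, fell by 4.83 ± 0.21 (adjusted p = 1.09e-07 in limma). It had 9.50 and 9.35 in epiblast E5.75, with 8.52 and 8.88 in epiblast E6.5, 6.61 and 7.61 in ESC and 2.55 to 3.38 on the EpiSC and rsEpiSC arrays. Etfdh and Etfa, which pass electrons from fatty acid oxidation to ubiquinone, fell in rsEpiSC E5.75 against EpiSC by 2.08 ± 0.29 and 1.49 ± 0.22 (adjusted p = 0.00157 and 0.0023 in limma).

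Of 50 assembly factors, the 12 above included, 31 rose and 5 fell, among them Coa3 (2.27 ± 0.33), which acts on complex IV, and Oxa1l (1.79 ± 0.16), which inserts proteins into the inner membrane. Of 18 genes of the citric acid cycle and pyruvate dehydrogenase, 10 rose and 1 fell. Citrate synthase, Cs, rose by 1.68 ± 0.13 and Mdh2 by 1.69 ± 0.27, and the kinase Pdk1, which inhibits pyruvate dehydrogenase, fell by 1.73 ± 0.46. Of 71 mitochondrial ribosomal proteins 30 rose and 9 fell, with a median of 0.35, and of 10 adenine nucleotide carriers, channels and related proteins 6 rose and 1 fell. The regulators of mitochondrial biogenesis had a median of -0.01: 5 of 20 rose and 2 fell, close to those shares, such as Ppargc1b (0.72 ± 0.19), a coactivator, and Gabpa (-0.65 ± 0.15), the factor whose letters were searched above.

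Markers of other cells were read beside these results. The summed linear signal of 17 fibroblast markers was 424 to 465 in ESC, 1528 to 2347 in EpiSC, 1202 to 1334 in rsEpiSC E5.75, 693 to 792 in rsEpiSC E6.5 and 448 to 482 in tissue, and 7 of the 17 rose and 1 fell in culture against tissue. The summed signal of 15 visceral endoderm markers was 309 to 414 in culture and 392 to 431 in tissue, where 1 rose and 1 fell, and of 11 trophoblast markers 1 rose and 1 fell. The trophoblast sum was 1310 and 940.0 in ESC and 637 and 1189 in EpiSC, above the 301 to 458 of tissue, and 245 to 297 in rsEpiSC, below it. Cox4i2 was highest in rsEpiSC, where the fibroblast sum lay above those of ESC and tissue and below that of EpiSC. In the list of pluripotent cell markers 3 of 8 rose and 1 fell against tissue, and in rsEpiSC E5.75 against ESC 1 rose and 5 fell. In EpiSC against ESC all 10 naive markers fell and 6 of 10 primed markers rose. The part of other cells in the results was not tested.

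Over the 6 group means, the genes outside the list whose pattern was most like the median of the structural subunits were Fastk (Pearson r = 0.997), Tmem256 (0.997), Washc1 (0.996), Dhrsx (0.995) and Yif1a (0.994), out of 10006 genes with a range of at least 1 unit over groups. Fastk had group means of 8.25 in ESC, 8.48 in EpiSC, 7.89 in both rsEpiSC groups, 6.71 in tissue of E5.75 and 6.03 in that of E6.5. With 6 points that share 4 cultured and 2 tissue groups, such values are a description of the culture and tissue split.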

How the data were processed

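RNA of 12 samples was amplified, labelled with biotin and hybridised to Affymetrix arrays, per the labels' protocols, which name a human array although the probe set identifiers match a mouse table. The deposited table holds log2 signals (0.332 to 13.594) of 41345 probe sets, which the authors made by RMA in oligo, per the submitters' processing notes, with versions and settings not given in the sources used here. Probe sets with several genes (1814) or none (16010) of the platform annotation were left out, and each gene kept its brightest probe set by mean over the 12 arrays, which leaves 22180 genes. Differences were tested on the deposited values with limma 3.58.1 in R 4.3.3 (lmFit on 6 group means, eBayes with a variance trend, residual degrees of freedom 6, prior 5.99), with Benjamini-Hochberg adjustment over all genes in each of 10 comparisons and a threshold of 0.05. In the 4 comparisons of culture with tissue, the median difference of all genes (-0.19 to -0.10) was subtracted before the test. The fit was also run on simulated data in which a gene had the same spread on all arrays. That run does not cover the wider spread between the tissue replicates.

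The members and lists were chosen with earlier results of these data known. Genes with values on every array were taken by rule: in each comparison up to 5 passing genes per direction by size and 2 that did not pass with the smallest p, the brightest and dimmest subunit of each complex, the 8 paralogs with their partners, and of each pathway list up to 4 passing genes. Others were named after their values were seen. Matching replicate numbers did not pair samples: over 15 pairs of groups, deviations from group means correlated from -0.26 to 0.06. Alternatives were 9 other settings and each of the 12 arrays left out.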

Additional observations from a re-analysis of the deposited data

How the results depend on the processing

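Counts are of the 93 genes that passed in limma. Quantile normalization gave 2 in EpiSC against ESC in place of 0 and 25 in rsEpiSC E6.5 against epiblast E6.5 in place of 38. It took the median difference from 0.52 to 0.19 in rsEpiSC E5.75, from 0.59 to 0.32 in rsEpiSC E6.5, from 0.75 to 0.41 in EpiSC and from 0.63 to 0.34 in all cultured groups against tissue. Bright genes only gave 0.18, 0.37, 0.40 and 0.35 for the same medians, 3 genes in EpiSC against ESC and 2 in rsEpiSC E5.75 against EpiSC, and turned Ndufb10 in all cultured groups from 0.35 to -0.0034. Values as deposited gave medians of 0.36 in rsEpiSC E5.75, 0.56 in EpiSC and 0.49 in all cultured groups. Array weights gave 2, 8 and 3 genes in EpiSC against ESC and in rsEpiSC E5.75 against ESC and against EpiSC (0, 5 and 1 as reported). Testing every probe set gave 1 and no variance trend 3 in rsEpiSC E5.75 against ESC, and fitting only the arrays compared gave 3 in rsEpiSC E5.75 against EpiSC. The causes were not tested, except that fewer genes enter the bright set and more tests the probe set one.

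With 1 array left out, where the lone array is assumed to vary like the other groups, counts ran from 0 to 2 in EpiSC against ESC, 0 to 6 in rsEpiSC E5.75 against ESC and 0 to 2 against EpiSC, 0 to 3 between tissue stages, 20 to 44 in rsEpiSC E5.75, 12 to 34 in rsEpiSC E6.5, 33 to 53 in EpiSC and 56 to 64 in all cultured groups against tissue. The medians against tissue ran from 0.34 to 0.66, 0.39 to 0.77, 0.57 to 0.80 and 0.57 to 0.69 in the same order. The median of the stage difference of rsEpiSC against that of tissue, 0.12, ran from -0.0483, without replicate 1 of epiblast E6.5, to 0.29. With the replicate number as a block, which the samples share only as a number, the counts were 0, 4, 1, 38, 37, 47 and 62 in place of 0, 5, 1, 38, 38, 48 and 63, over EpiSC against ESC, rsEpiSC E5.75 against ESC and against EpiSC, and rsEpiSC E5.75, rsEpiSC E6.5, EpiSC and all cultured groups against tissue.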

Other observations

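A set of 10 probe sets is shared between a gene that fits the name rule and at least 1 other gene, and 9 such genes lie only on these. Their signal cannot be given to 1 gene, so they were left out above. The brighter probe set of Ndufs6 and Ndufs6b had group means of 11.37 to 11.63 in the cultured groups, against tissue means of 11.03 (E5.75) and 10.61 (E6.5). The difference of all cultured groups from tissue, relative to the median of all probe sets, was 0.86 ± 0.11 (adjusted p = 0.000705 in limma). The probe set of Ndufb4 with its copies Ndufb4b and Ndufb4c had 8.64 to 9.06 in the cultured groups and 8.65 and 8.83 in tissue. The probe set of Uqcrb with Gm10767 had 5.80 to 6.44 in the cultured groups and 5.31 and 5.64 in tissue. It rose by 0.82 ± 0.15 (adjusted p = 0.00328 in limma), while the brighter probe set of Uqcrb alone did not pass. The probe set of Ndufs5 with its pseudogene had 7.94 to 8.60 in the cultured groups and 6.62 and 6.54 in tissue (1.84 ± 0.41, adjusted p = 0.00961 in limma), while the probe set of Ndufs5 alone, described above, did not pass.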
